A study of Mus musculus with 15 samples.

Results

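Lactate transport and the control of glycolysis were followed through 10 genes, measured among the 55357 genes of the count tables. They encode the lactate carriers Slc16a1 and Slc16a3, their chaperone Bsg, the lactate dehydrogenase subunits Ldha and Ldhb, the bifunctional enzymes Pfkfb2, Pfkfb3 and Pfkfb4, and the pyruvate dehydrogenase kinases Pdk1 and Pdk4. The genes were listed by symbol and chosen by earlier log2 fold changes between the genotypes in these same libraries, so their genotype differences are given below as a description, without a p-value, while differences between ages were tested. Of the 10 genes, 9 passed the filter on low counts and entered the fit across 15770 genes. Pdk4 did not, and it is described by its counts.

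Corneas were profiled by RNA sequencing from mice heterozygous at Opa1 (OPA1+/-) and from OPA1+/+ mice. The Opa1 protein is a GTPase that fuses inner mitochondrial membranes and keeps cristae in shape. Mice of 3 months gave 4 OPA1+/- and 4 OPA1+/+ libraries, and mice of 6 months gave 4 OPA1+/- and 3 OPA1+/+ libraries. The labels name no Opa1 allele, strain, sex, litter, batch, hour of dissection or number of animals per library. In every library Xist, expressed from the inactive X, was at 1417 to 1973 counts per 1e6 (CPM) while 4 genes of the Y chromosome summed to 125 to 170 CPM, so RNA of both sexes was mixed in each. The p-values measure the spread between libraries, which may be technical.

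Glycolysis ends in pyruvate, which lactate dehydrogenase turns into lactate and back. LDHA and LDHB subunits mix in the tetramer, and LDHA-rich forms favour lactate. Lactate crosses membranes with a proton through monocarboxylate transporters: MCT1 (Slc16a1) is widespread, MCT4 (Slc16a3) is typical of cells that export lactate and is a target of hypoxia-inducible factor, and both need basigin (Bsg) to reach the cell surface. PFKFB enzymes make and break fructose 2,6-bisphosphate, the strongest activator of phosphofructokinase; PFKFB3 leans furthest towards making it. Pyruvate dehydrogenase kinases switch off the entry of pyruvate into the mitochondrial cycle, Pdk1 as a target of hypoxia-inducible factor and Pdk4 as a gene of fasting and fatty acid use. The corneal epithelium is strongly glycolytic, and the endothelium moves lactate out of the stroma towards the aqueous humour.

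The promoters of Slc16a3 and Pfkfb3, which among the 9 tested members differed most between genotypes over both ages, are shown first, with the one of 2 Ldha promoters that held the most motif matches. RefSeq entries on GRCm38.p6 matched 9 of the 10 members, with 14 promoters; Bsg was not matched. Each sequence is the 250 bases before an annotated start, and capitals mark the core of the hypoxia response element (ACGTG or GCGTG, searched on both strands) and the E-box CACGTG, which contains that core on both strands. The intervals are chr11:120948817-120949066 (plus strand) for Slc16a3, chr2:11553930-11554179 (minus strand) and chr2:11502091-11502340 (minus strand) for the upstream and downstream starts of Pfkfb3, and chr7:46845554-46845803 (plus strand) for Ldha.
Slc16a3: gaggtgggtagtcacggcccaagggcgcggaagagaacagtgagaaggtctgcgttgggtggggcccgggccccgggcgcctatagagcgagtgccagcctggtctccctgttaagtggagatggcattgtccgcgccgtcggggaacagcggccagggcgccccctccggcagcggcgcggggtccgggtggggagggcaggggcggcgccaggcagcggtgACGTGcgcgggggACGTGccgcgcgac
Pfkfb3, upstream start: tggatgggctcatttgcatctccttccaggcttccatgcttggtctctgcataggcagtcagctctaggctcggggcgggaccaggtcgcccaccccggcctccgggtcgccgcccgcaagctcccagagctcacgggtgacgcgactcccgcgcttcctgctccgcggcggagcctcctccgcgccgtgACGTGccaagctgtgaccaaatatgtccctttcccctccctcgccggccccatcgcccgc
Pfkfb3, downstream start: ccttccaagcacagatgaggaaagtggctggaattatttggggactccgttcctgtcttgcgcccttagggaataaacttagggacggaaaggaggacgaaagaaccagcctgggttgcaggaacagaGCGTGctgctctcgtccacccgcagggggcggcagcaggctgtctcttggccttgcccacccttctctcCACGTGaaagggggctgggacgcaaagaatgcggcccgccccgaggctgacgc
Ldha: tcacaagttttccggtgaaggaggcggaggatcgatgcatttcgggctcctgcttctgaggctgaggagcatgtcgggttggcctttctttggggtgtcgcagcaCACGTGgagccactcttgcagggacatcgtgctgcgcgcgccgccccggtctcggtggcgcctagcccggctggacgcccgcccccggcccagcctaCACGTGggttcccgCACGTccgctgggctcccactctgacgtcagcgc
The Slc16a3 promoter held 2 cores, with first letters 27 and 14 bases before the start, and no E-box. The upstream Pfkfb3 start had 1 core, 60 bases away. The downstream one had 3, of which a pair formed an E-box 53 bases away. The Ldha promoter shown had 5 cores, of which 2 pairs formed the 2 E-boxes, 145 and 48 bases away. That of the other annotated Ldha start, at chr7:46846832-46847081 and not shown, had 1 core and no E-box. Of the transcripts of an older annotation release, 0 contained the bases just after the start shown and 1 those after the other. A core stood in 13 of the members' 14 promoters and in 38.6% of all 32851 promoters of the table searched over the same length, and an E-box stood in 4 of the 14 and in 6.02% of all. These matches describe the letters alone.

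The members lie on 8 chromosomes, with coordinates as the count tables give them, read as GRCm39. Slc16a1 (ENSMUSG00000032902.2) is at chr3:104545984-104565778 and Slc16a3 (ENSMUSG00000025161.17) at chr11:120839306-120851694, both on the plus strand. Bsg (ENSMUSG00000023175.16) is at chr10:79540325-79547803 and Ldha (ENSMUSG00000063229.16) at chr7:46490899-46505051 on the plus strand, and Ldhb (ENSMUSG00000030246.13) at chr6:142435975-142453683 on the minus strand. Pfkfb2 (ENSMUSG00000026409.15) is at chr1:130616919-130656990 and Pfkfb3 (ENSMUSG00000026773.20) at chr2:11476244-11558888 on the minus strand, and Pfkfb4 (ENSMUSG00000025648.19) at chr9:108820846-108861296 on the plus strand. Pdk1 (ENSMUSG00000006494.12) is at chr2:71703568-71734202 on the plus strand and Pdk4 (ENSMUSG00000019577.7) at chr6:5483351-5496309 on the minus strand.

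Libraries held 11673240 to 18194946 counts. Opa1 had 45.5 to 57.8 CPM in OPA1+/- libraries, against 65.2 to 70.3 CPM in OPA1+/+ libraries, at 3 months (exact two-sided permutation p = 0.0286). For mice of 6 months these ranges were 47.0 to 49.1 CPM in OPA1+/- and 66.9 to 73.4 CPM in OPA1+/+ libraries (exact two-sided permutation p = 0.0571). Both p-values are the lowest possible with so few libraries. Defining transcripts of the corneal layers were present in every library: Krt12 of the epithelium averaged 28619 CPM, Kera of stromal keratocytes 191 CPM and Slc4a11 of the endothelium 189 CPM. A pair of libraries stood apart by summed transcripts of 10 photoreceptor and retina markers, OPA1+/- at 3 months replicate 4 (165 CPM) and OPA1+/+ at 6 months replicate 1 (157 CPM), against 13.2 to 26.4 CPM in the other 13, so results that rest on them are also given without them. The clock gene Arntl reached 39.5 to 54.3 CPM in the 3 OPA1+/+ libraries of 6 months, against 10.2 to 26.6 CPM in the other 12. Because RNA of the whole tissue was sequenced, fewer cells of a type and less RNA per cell cannot be told apart in any value below.

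Per length of exon, the genes differed over more than 3 orders of magnitude. Bsg averaged 164 CPM per kilobase (RPKM; SD 15.7, n = 15 libraries) and Ldha 79.4 RPKM (SD 6.24). A middle group followed, with Pfkfb3 at 12.6, Pdk1 at 11.9, Pfkfb4 at 9.67 and Pfkfb2 at 9.42 RPKM, and the ranges of neighbours in that order overlapped. Ldhb stood at 4.74 RPKM, clear of both sides. The transporters were low, with Slc16a1 at 1.22 RPKM and Slc16a3 at 0.419 RPKM, and Pdk4 was lowest at 0.0629 RPKM. TPM, which scales the per-length values to a fixed total, gave the same order. In each library Ldha exceeded Ldhb per length, by a ratio of 16.9 ± 2.18 (SD, n = 15; range 13.4 to 20.4).

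**Figure D1:**
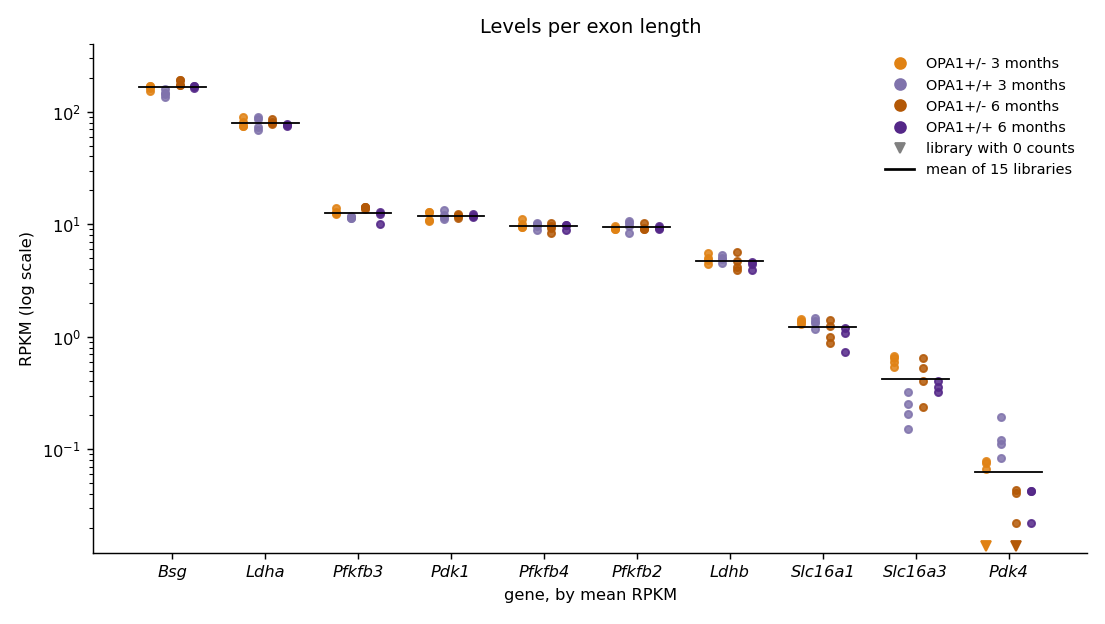
Level of each gene in the 15 libraries in RPKM on a log axis, 1 point per library and a line at the mean of all 15; triangles mark libraries with 0 counts. Bsg (164 RPKM) and Ldha (79.4 RPKM) lie at the top, 4 genes share the band around 10 RPKM, and Slc16a3 (0.419 RPKM) and Pdk4 (0.0629 RPKM) lie at the bottom.

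The libraries scattered least for Pdk1, with a coefficient of variation of 6.61%, and then for Pfkfb2 (6.67%), Pfkfb4 (6.87%), Ldha (7.87%), Bsg (9.56%), Pfkfb3 (9.97%) and Ldhb (11.1%). Slc16a1 (17.5%) and Slc16a3 (42.0%) scattered more, on 42 to 115 and 11 to 58 counts per library. Reads that match several genes equally well can be lost in counting. Of all 75-base windows of transcripts in an older annotation release than that of the counts, 16.2% for Pfkfb2, 12.6% for Ldhb and 2.69% for Ldha also occurred in transcripts of another gene. For Pfkfb2 1188 of the 1272 shared windows were in the predicted gene Gm29427 (0 to 14 counts per library), for Ldhb all 206 in Gm5514 (0 counts), and for Ldha 39 of 99 in Gm5452 (0 to 1 counts), the rest being spread over other genes. The levels of these 3 members are uncertain to an extent that the counts of those genes do not bound. No window of Slc16a1, Slc16a3, Bsg, Pfkfb3, Pfkfb4 or Pdk1 was shared.

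The first comparison asked how the genotypes differed at each age. Slc16a3 was higher in OPA1+/- corneas at 3 months, in every library. Pfkfb3 was higher at both ages, and Bsg was higher on average at both. The dehydrogenases, Pfkfb2, Pfkfb4 and Pdk1 differed by at most 0.09 on the log2 scale at either age.

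Slc16a3, the exporter, had 3.45, 2.83, 3.60 and 3.18 CPM in OPA1+/- libraries at 3 months, against 1.10, 0.798, 1.34 and 1.70 CPM in OPA1+/+ libraries. The lowest OPA1+/- library lay above the highest OPA1+/+ library, and the log2 fold change was 1.41 ± 0.26 (SE of the fit). At 6 months it had 3.46, 2.15, 2.80 and 1.25 CPM in OPA1+/- libraries, against 1.88, 2.16 and 1.71 CPM in OPA1+/+ libraries. The groups overlapped, with OPA1+/- replicate 4 below all OPA1+/+ libraries, and the log2 fold change was 0.33 ± 0.28. The 6-month difference minus the 3-month difference was -1.075 ± 0.39 (log2). Per length, the ratio of Slc16a1 to Slc16a3 was 2.23 ± 0.29 in OPA1+/- and 6.26 ± 2.47 in OPA1+/+ corneas at 3 months (SD, n = 4 each). At 6 months it was 2.67 ± 0.73 in OPA1+/- (n = 4) and 2.77 ± 0.54 in OPA1+/+ corneas (n = 3), so the OPA1+/+ corneas of 3 months were the group with relatively little Slc16a3.

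Slc16a1, the widespread carrier, differed by less than its spread between genotypes. It had 5.71, 6.05, 5.95 and 6.31 CPM in OPA1+/- libraries at 3 months, inside the range of the OPA1+/+ libraries at 5.15, 6.53, 6.06 and 5.88 CPM. In mice of 6 months it had 6.18, 4.38, 5.46 and 3.91 CPM in OPA1+/- and 5.27, 4.78 and 3.27 CPM in OPA1+/+ libraries, again overlapping. The log2 fold changes were 0.02 ± 0.15 and 0.17 ± 0.17.

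Bsg, the chaperone of both carriers, had 295, 277, 307 and 307 CPM in OPA1+/- libraries at 3 months, against 246, 262, 264 and 291 CPM in OPA1+/+ libraries. OPA1+/- replicate 2 lay below OPA1+/+ replicate 4, and the log2 fold change was 0.16 ± 0.05. Its 6-month values were 348, 312, 347 and 313 CPM in OPA1+/- libraries, against 293, 309 and 305 CPM in OPA1+/+ libraries. These groups did not overlap, though OPA1+/- replicate 2 lay close to OPA1+/+ replicate 2, and the log2 fold change was 0.13 ± 0.06. With a term for clock genes in the fit it was -0.0024 ± 0.13. The clock score lay at -0.95 to -0.61 in OPA1+/+ libraries of 6 months, against -2.61 to -1.53 in all others. Fits with that term, here and below, therefore cannot separate the clock score from differences that involve that group. Per length there were 121 ± 6.91 Bsg for each Slc16a1 in OPA1+/- and 110 ± 10.3 in OPA1+/+ corneas at 3 months, and 165 ± 24.7 in OPA1+/- and 174 ± 48.1 in OPA1+/+ corneas at 6 months.

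**Figure D2:**
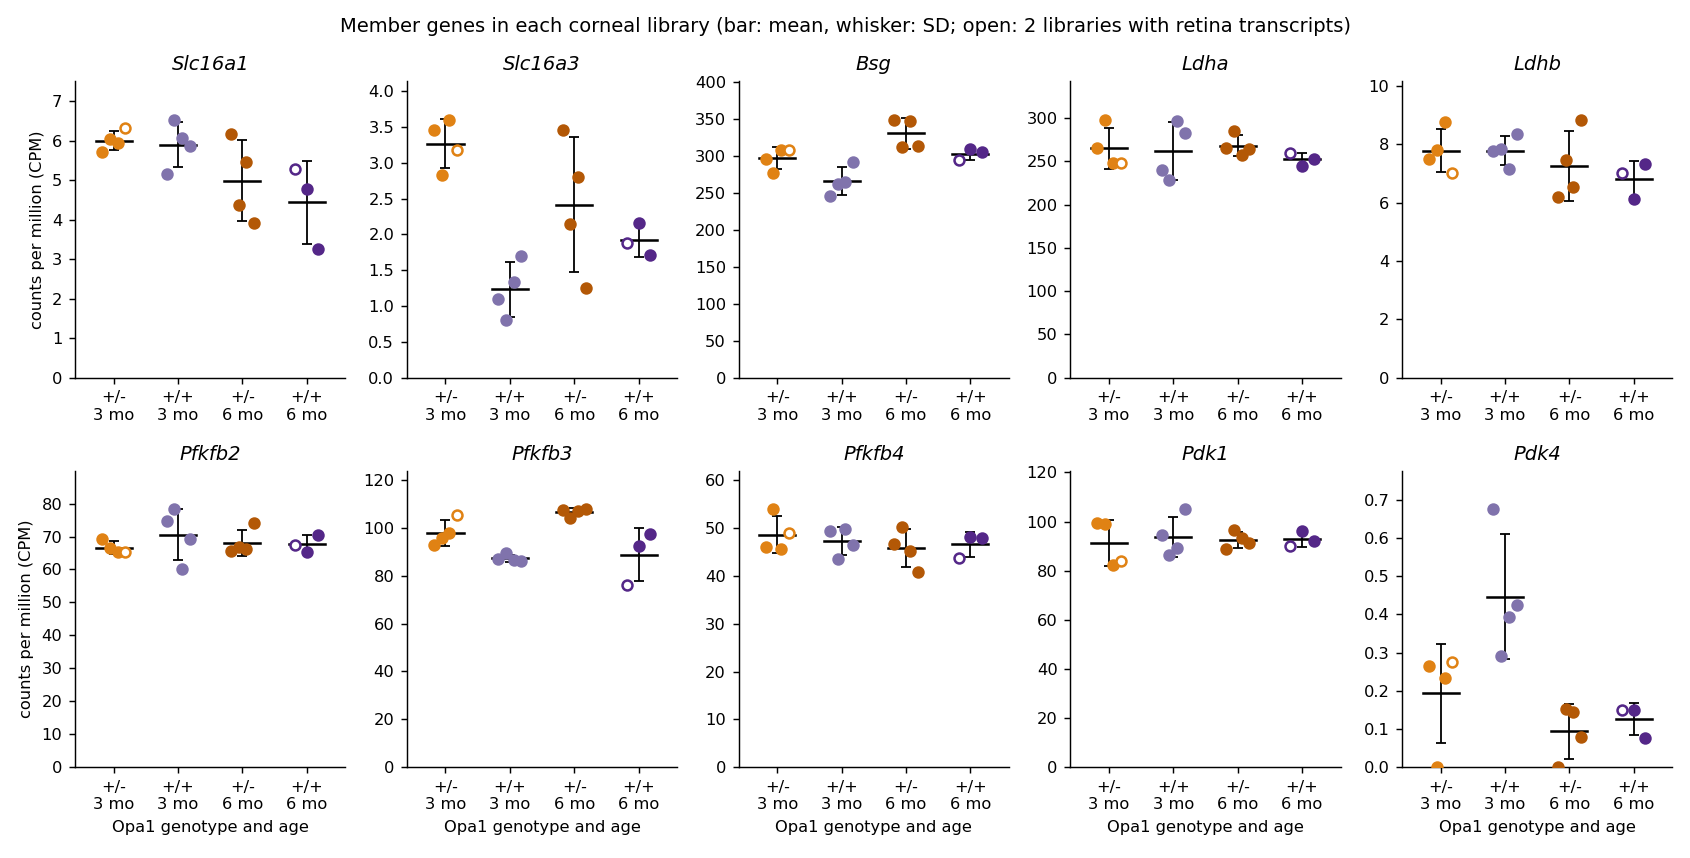
CPM of each gene per library, with groups from left to right OPA1+/- and OPA1+/+ at 3 months and OPA1+/- and OPA1+/+ at 6 months; bars are group means, whiskers the SD, and open points the 2 libraries with retina transcripts, on axes from 0. Slc16a3 at 3 months (2.83 to 3.60 CPM in OPA1+/- and 0.798 to 1.70 CPM in OPA1+/+ libraries) and Pfkfb3 at both ages show no overlap between genotypes.

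The dehydrogenases overlapped between genotypes at both ages. Ldha averaged 265 ± 23.6 CPM in OPA1+/- and 262 ± 33.2 CPM in OPA1+/+ corneas at 3 months, and 268 ± 11.99 CPM in OPA1+/- and 253 ± 7.49 CPM in OPA1+/+ corneas at 6 months. Its log2 fold changes were 0.02 ± 0.08 and 0.09 ± 0.08. Ldhb averaged 7.78 ± 0.74 CPM in OPA1+/- and 7.78 ± 0.49 CPM in OPA1+/+ corneas at 3 months, and 7.25 ± 1.19 CPM in OPA1+/- and 6.81 ± 0.62 CPM in OPA1+/+ corneas at 6 months. The ratio of Ldha to Ldhb per length was 16.3 ± 2.03 in OPA1+/- and 16.1 ± 2.60 in OPA1+/+ corneas at 3 months, and 17.9 ± 2.63 in OPA1+/- and 17.7 ± 1.29 in OPA1+/+ corneas at 6 months.

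Among the PFKFB enzymes, Pfkfb3 alone stood apart between genotypes without overlap. It had 92.8, 95.6, 98.0 and 105 CPM in OPA1+/- libraries at 3 months, against 86.8, 89.5, 86.5 and 86.2 CPM in OPA1+/+ libraries. At 6 months it had 108, 104, 107 and 108 CPM in OPA1+/- libraries, against 76.3, 92.5 and 97.5 CPM in OPA1+/+ libraries. The log2 fold changes were 0.17 ± 0.06 and 0.26 ± 0.06. The highest OPA1+/- library of 3 months and the lowest OPA1+/+ library of 6 months were those with retina transcripts. Without both, the groups still did not overlap at either age, and the log2 fold changes were 0.12 ± 0.04 and 0.17 ± 0.05. With a term for clock genes the 6-month value was 0.34 ± 0.15.

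Pfkfb2 averaged 66.6 ± 1.92 CPM in OPA1+/- and 70.6 ± 7.88 CPM in OPA1+/+ corneas at 3 months, and 68.1 ± 3.94 CPM in OPA1+/- and 67.8 ± 2.57 CPM in OPA1+/+ corneas at 6 months. Pfkfb4, an isoform first known from testis, averaged 48.7 ± 3.80 CPM in OPA1+/- and 47.3 ± 2.92 CPM in OPA1+/+ corneas at 3 months, and 45.8 ± 3.97 CPM in OPA1+/- and 46.6 ± 2.54 CPM in OPA1+/+ corneas at 6 months. Both overlapped between genotypes at both ages. Per length, Pfkfb3 exceeded Pfkfb2 by a ratio of 1.41 ± 0.11 in OPA1+/- and 1.20 ± 0.13 in OPA1+/+ corneas at 3 months, and by 1.504 ± 0.079 in OPA1+/- and 1.26 ± 0.15 in OPA1+/+ corneas at 6 months.

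Pdk1 was the steadiest member, with averages of 91.2 ± 9.26 CPM in OPA1+/- and 93.8 ± 8.18 CPM in OPA1+/+ corneas at 3 months, and 92.5 ± 3.27 CPM in OPA1+/- and 92.8 ± 3.20 CPM in OPA1+/+ corneas at 6 months. Pdk4 was near the limit of detection. Its raw counts were 4, 0, 3 and 5 in OPA1+/- libraries at 3 months, against 8, 4, 5 and 5 in OPA1+/+ libraries. At 6 months they were 0, 2, 2 and 1 in OPA1+/- libraries and 2, 2 and 1 in OPA1+/+ libraries. A count of 0 allows up to 3 counts, or 0.165 to 0.257 CPM depending on the library, so a genotype difference of Pdk4 could not be resolved at this depth. These limits cover counting error alone.

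Counts of members past a threshold stand here beside the share of all genes, and since the genotype contrasts chose the members, nothing is read from them. At 3 months edgeR's quasi-likelihood test (Benjamini-Hochberg adjusted p under 0.05) called 0 of 9 members and 0.00634% of all genes. An unadjusted p under 0.05 was reached by 3 of 9 members and 9.03% of all genes. DESeq2 called 1 member (Slc16a3) and 0.323% of the genes to which it gave an adjusted p, and limma voom called 0 members and 0.038% of all genes. At 6 months edgeR called 0 of 9 members and 0.323% of all genes, while 2 of 9 members and 10.2% of all genes had an unadjusted p under 0.05. DESeq2 called 1 member (Pfkfb3) and 1.54% of genes, and voom 0 members and 0.723%. Averaged over both ages, edgeR called 2 of 9 members, Slc16a3 (0.87 ± 0.19 log2) and Pfkfb3 (0.22 ± 0.04), and 0.793% of all genes. DESeq2 called 3 members (Slc16a3, Bsg and Pfkfb3) and 2.36% of genes, and voom 2 (Slc16a3 and Pfkfb3) and 1.42%. Without the pair of libraries with retina transcripts edgeR called 0 members and 0.119% of all genes, with Slc16a3 at 0.87 ± 0.22 and Pfkfb3 at 0.14 ± 0.03. The Slc16a3 call held in 4 of the 15 fits that left out 1 library each (0.76 to 0.97) and the Pfkfb3 call in 11 of 15 (0.17 to 0.25). Both ended with a term for clock genes (0.96 ± 0.38 and 0.26 ± 0.09) or for endothelial markers (0.73 ± 0.18 and 0.22 ± 0.05). Of all genes, the fit with the clock term called 0 and that with the endothelial term 53, against 125 without either. The 8 endothelial markers, all detected in every library, overlapped between genotypes, with sums of 1857 to 1968 CPM in OPA1+/- and 1835 to 1927 CPM in OPA1+/+ libraries at 3 months, and 1814 to 2003 CPM in OPA1+/- and 1829 to 1960 CPM in OPA1+/+ libraries at 6 months.

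Libraries of the genotypes did not overlap for 2 of 9 members at 3 months (Slc16a3 and Pfkfb3), against 4.6% of all genes. At 6 months this held for 2 of 9 (Bsg and Pfkfb3), against 11.3% of all genes, where only 3 libraries stand against 4. Over all 15 libraries it held for 0 of 9 members and 0.178% of all genes. For the change of the genotype difference with age, edgeR called 0 of 9 members and 0% of all genes, DESeq2 0 members and 0.205% of genes and voom 0 members and 0% of all genes, and 1 member (Slc16a3) and 6.91% of all genes had an unadjusted p under 0.05.

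**Figure D3:**
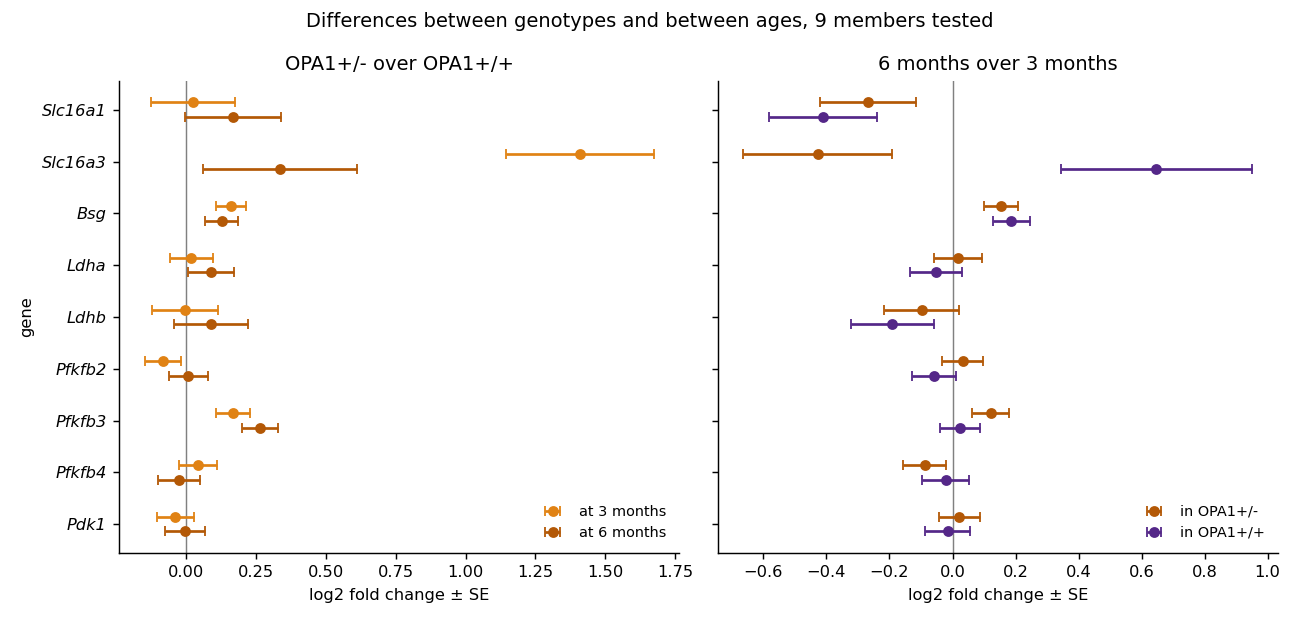
Log2 fold change with its SE for the 9 tested members, on the left OPA1+/- over OPA1+/+ at 3 and at 6 months and on the right 6 over 3 months in OPA1+/- and in OPA1+/+ corneas. Slc16a3 at 3 months (1.41 ± 0.26) is the point farthest from 0, and Pdk1, Pfkfb2, Pfkfb4 and Ldha lie near 0 in all 4 comparisons.

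The second comparison asked how the members changed with age. No member passed in edgeR in either genotype or over both. Bsg came closest, higher at 6 months in both genotypes, while Slc16a1 was lower at 6 months on average in both. Slc16a3 was lower at 6 months in OPA1+/- and higher at 6 months in OPA1+/+ corneas, on average.

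Bsg averaged 330 ± 20.4 CPM at 6 months, against 297 ± 14.3 CPM at 3 months, in OPA1+/- corneas, a log2 fold change of 0.15 ± 0.05 (edgeR adjusted p = 0.380). In OPA1+/+ corneas it averaged 302 ± 8.02 CPM at 6 months, against 266 ± 18.9 CPM at 3 months, with 0.19 ± 0.06 (edgeR adjusted p = 0.238). Averaged over genotypes the value was 0.17 ± 0.04 (edgeR adjusted p = 0.0552), and in each genotype the lowest library of 6 months lay above the highest of 3 months. It was past the threshold by the DESeq2 Wald test (adjusted p = 0.00913) and by limma voom (adjusted p = 0.0455). In edgeR it passed without the libraries with retina transcripts (0.19 ± 0.04, adjusted p = 0.0356), without OPA1+/+ at 3 months replicate 4 (0.19 ± 0.04, adjusted p = 0.0287) and without OPA1+/+ at 6 months replicate 1 (0.18 ± 0.04, adjusted p = 0.0371). The other fits without 1 library reached an adjusted p of at most 0.160, and a term for clock genes gave 0.21 ± 0.06 (adjusted p = 0.419).

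Slc16a1 averaged 4.98 ± 1.03 CPM at 6 months, against 6.00 ± 0.25 CPM at 3 months, in OPA1+/- corneas, and 4.44 ± 1.05 CPM at 6 months, against 5.90 ± 0.57 CPM at 3 months, in OPA1+/+ corneas. The log2 fold change averaged over genotypes was -0.34 ± 0.11 and did not pass (edgeR adjusted p = 0.220; -0.40 ± 0.13 and 0.137 without the libraries with retina transcripts). All 7 keratocyte markers were detected in every library, and their summed level moved the same way, at 1628 to 2144 CPM at 6 months against 2365 to 2781 CPM at 3 months in OPA1+/- libraries, and at 1639 to 2155 CPM at 6 months against 2036 to 2885 CPM at 3 months in OPA1+/+ libraries. Their part in the Slc16a1 difference was not tested.

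For Slc16a3 the age differences pointed in opposite directions on average, -0.43 ± 0.24 in OPA1+/- (edgeR adjusted p = 0.616) and 0.65 ± 0.30 in OPA1+/+ corneas (edgeR adjusted p = 0.481). Neither passed, although in OPA1+/+ corneas the lowest library of 6 months (1.71 CPM) lay just above the highest of 3 months (1.70 CPM). They share the libraries of the genotype contrasts, so the difference between them is the interaction value given above. Pfkfb3 had 0.12 ± 0.06 in OPA1+/- (edgeR adjusted p = 0.557), 0.02 ± 0.06 in OPA1+/+ (0.938) and 0.07 ± 0.04 over both (0.530). Without the libraries with retina transcripts, an exclusion chosen after seeing the data, the averaged value was 0.14 ± 0.03, which passed (edgeR adjusted p = 0.0376). The averaged Pfkfb3 value passed in 0 of the 15 fits without 1 library, and in this 1 alone of 9 other alternatives.

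The remaining members of the main fit differed little with age, and Pdk4 had too few counts to resolve a difference. Averaged over genotypes, edgeR's adjusted p was 0.544 for Ldhb (-0.14 ± 0.09), 0.722 for Pfkfb4 (-0.05 ± 0.05), 0.935 for Ldha (-0.02 ± 0.06), 0.946 for Pfkfb2 (-0.01 ± 0.05) and 0.985 for Pdk1 (0.00 ± 0.05). Pdk4 had 0 to 2 counts in the 7 libraries of 6 months, against 0 to 8 in the 8 libraries of 3 months. In a fit without the filter on low counts its averaged log2 fold change was -1.38 ± 0.55 (edgeR adjusted p = 0.393).

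In OPA1+/- corneas edgeR called 0 of 9 members with age and 0.0824% of all genes, and 1 member and 9.05% of all genes had an unadjusted p under 0.05. In OPA1+/+ corneas it called 0 of 9 and 0.0507% of all genes, with 3 members and 10.2% of all genes at an unadjusted p under 0.05. Over both genotypes it called 0 of 9 and 0.412% of all genes, with 2 members and 11.9% of all genes at an unadjusted p under 0.05. Without the libraries with retina transcripts edgeR called 2 members over both genotypes (Bsg and Pfkfb3) and 1.57% of all genes. In OPA1+/- corneas DESeq2 called 0 members and 0.482% of genes, and voom 0 and 0.254%. In OPA1+/+ corneas DESeq2 called 0 members and 0.943% of genes, and voom 0 and 0.00634%. Over both, DESeq2 called 1 member (Bsg) and 1.62% of genes, and voom 1 (Bsg) and 0.761%. Libraries of the ages did not overlap for 1 of 9 members in OPA1+/- corneas (Bsg), against 6.04% of all genes, and for 2 of 9 in OPA1+/+ corneas (Bsg and Slc16a3), against 8.14%. Over all 15 libraries this held for 0 of 9 members and 0.209% of all genes. The median log2 fold change of the 9 members was -0.01 over both genotypes, against 0.00098 over all genes.

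Members were also set beside each other within groups, as a description over 15 libraries that share their depth and their dissection. After removing group means, log2 CPM of Slc16a3 and Bsg correlated with r = 0.69, the highest of all pairs, and Slc16a3 and Pfkfb2 with r = -0.65, the lowest. Among 12192 genes compared, those most like Slc16a3 were the secreted protease Htra1 (r = 0.88), the nucleolar protein gene Mybbp1a (0.86), the tetraspanin Cd63 (0.85), Pigo of glycolipid anchor synthesis (0.85) and the neurotrophic receptor Gfra1 (0.85). Those most like Pfkfb3 were Suco (0.91), the sulfurtransferase Tst (0.88), the splicing factor gene Prpf6 (0.86), Btaf1 (0.86) and Riox2 (0.85).

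The neighbours of these genes in the same pathways were described through 11 lists (126 genes), compiled, like the members, with earlier results in view, so that their counts and p-values are no independent evidence. At 3 months no gene of any list passed in edgeR. Averaged over both ages, 0 glycolytic enzymes passed, and the changes that passed were in the hypoxia and clock lists. Counts of positive fold changes stand beside 51.2% positive over all genes in that comparison, and counts that passed beside 0.793% of all genes.

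Of the other lactate carriers, 3 of 5 were tested and 0 passed. Slc16a7, encoding the high-affinity carrier MCT2, averaged 8.26 ± 0.55 CPM in OPA1+/- and 7.07 ± 0.73 CPM in OPA1+/+ corneas at 3 months, and 8.26 ± 1.08 CPM in OPA1+/- and 6.14 ± 0.41 CPM in OPA1+/+ corneas at 6 months. Its averaged log2 fold change was 0.33 ± 0.08 (edgeR adjusted p = 0.0716). Emb, the alternative chaperone, had -0.35 ± 0.25 (edgeR adjusted p = 0.644). Of the other SLC16 genes, 7 of 10 were tested, 0 passed and 2 were positive, with a median of -0.02, against 0.0028 over all genes. Slc16a10, which encodes a carrier of aromatic amino acids, averaged 3.66 ± 0.49 CPM in OPA1+/- and 6.02 ± 2.33 CPM in OPA1+/+ corneas at 3 months, and 3.43 ± 0.96 CPM in OPA1+/- and 4.78 ± 2.00 CPM in OPA1+/+ corneas at 6 months (-0.60 ± 0.22 averaged, edgeR adjusted p = 0.268). Slc16a13 had -0.16 ± 0.06 (edgeR adjusted p = 0.282). Of the other lactate dehydrogenases, 2 of 3 were tested and 0 passed, with -0.05 ± 0.11 for Ldhd, which acts on D-lactate (edgeR adjusted p = 0.915), and -0.02 ± 0.16 for Ldhal6b (0.980).

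At the phosphofructokinase step 6 of 7 genes were tested, 0 passed and 5 were positive, with a median log2 fold change of 0.14 over both ages. Pfkl, a phosphofructokinase subunit, averaged 59.9 ± 4.40 CPM in OPA1+/- and 49.4 ± 8.81 CPM in OPA1+/+ corneas at 3 months, and 57.9 ± 7.02 CPM in OPA1+/- and 45.8 ± 2.16 CPM in OPA1+/+ corneas at 6 months (0.31 ± 0.08 averaged, edgeR adjusted p = 0.112). Pfkm, the muscle-type subunit, had 0.05 ± 0.04 (edgeR adjusted p = 0.665). Of the other glycolytic enzymes 11 of 14 were tested, 0 passed and 9 were positive, with a median of 0.11. Pgam1, a phosphoglycerate mutase, averaged 10.8 ± 0.21 CPM in OPA1+/- and 8.16 ± 1.84 CPM in OPA1+/+ corneas at 3 months, and 9.75 ± 0.69 CPM in OPA1+/- and 8.11 ± 0.99 CPM in OPA1+/+ corneas at 6 months (0.33 ± 0.09 averaged, edgeR adjusted p = 0.104). Gpi1, the isomerase, had 0.12 ± 0.04 (edgeR adjusted p = 0.145). For glucose entry and phosphorylation 5 of 8 genes were tested, 0 passed and 4 were positive, with a median of 0.06. Slc2a1, the main glucose transporter of the epithelium, had 0.15 ± 0.07 (edgeR adjusted p = 0.353), and Hk1, a hexokinase, 0.06 ± 0.05 (0.669).

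For pyruvate entry into mitochondria all 12 genes were tested, 0 passed and 8 were positive, with a median of 0.04. Pdhx, a component of the pyruvate dehydrogenase complex, averaged 28.2 ± 1.25 CPM in OPA1+/- and 31.1 ± 3.82 CPM in OPA1+/+ corneas at 3 months, and 29.1 ± 1.65 CPM in OPA1+/- and 33.7 ± 0.49 CPM in OPA1+/+ corneas at 6 months (-0.18 ± 0.05 averaged, edgeR adjusted p = 0.141). Mpc1, a subunit of the mitochondrial pyruvate carrier, had 0.17 ± 0.05 (edgeR adjusted p = 0.159).

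Of 21 hypoxia response genes 14 were positive over both ages, with a median of 0.05, and 1 passed. Ndufa4l2, a mitochondrial protein induced by hypoxia-inducible factor, had 2.39, 1.99, 1.88 and 1.87 CPM in OPA1+/- libraries at 3 months, against 1.60, 0.871, 1.18 and 1.19 CPM in OPA1+/+ libraries. Its 6-month values were 2.41, 3.00, 3.02 and 3.13 CPM in OPA1+/- libraries, against 1.81, 2.02 and 1.79 CPM in OPA1+/+ libraries. The groups did not overlap at either age, which held for 4.6% of all genes at 3 months and 11.3% at 6 months. Averaged over ages, Ndufa4l2 was higher in OPA1+/- corneas by 0.69 ± 0.15 on the log2 scale (edgeR adjusted p = 0.0309). The call ended in 9 of 15 fits without 1 library, without both libraries with retina transcripts (0.70 ± 0.17, adjusted p = 0.106), and with a term for endothelial markers (0.69 ± 0.15, adjusted p = 0.0623) or for clock genes (0.68 ± 0.29, adjusted p = 0.988). Of the fasting response genes 13 of 17 were tested, and of the glucocorticoid response genes all 10, and 0 passed in either list, with medians of -0.04 and -0.09. Angptl4, a lipase inhibitor and target of fatty acid receptors as Pdk4 is, had 0.32 ± 0.09 (edgeR adjusted p = 0.0899). Foxo1, a transcription factor of the fasting response, had 0.12 ± 0.03 (edgeR adjusted p = 0.0844). In the glucocorticoid list the receptor gene Nr3c1 had 0.10 ± 0.03 (edgeR adjusted p = 0.170) and the kinase gene Sgk1 -0.15 ± 0.06 (0.282).

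The clock list is given because Arntl set the OPA1+/+ libraries of 6 months apart, so its counts are a description. At 6 months edgeR called 0.323% of all genes in either direction. Of 18 tested clock genes, 6 passed as higher in OPA1+/- than in OPA1+/+ corneas and 0 as lower, with a median of 0.29. Among them were Tef (0.59 log2, edgeR adjusted p = 0.000623) and Dbp (0.85, edgeR adjusted p = 0.0155). Tef, Dbp, Nr1d2 and Per3 each had their lowest group mean in OPA1+/+ corneas of 6 months. Without the libraries with retina transcripts 14 of all genes passed in edgeR. Of the 18 clock genes 2 did, Tef (edgeR adjusted p = 0.00669) and Nr1d2 (0.0176), while Dbp (0.0706) and Per3 (0.0948) were among the 4 that no longer did. Averaged over both ages edgeR called 0.793% of all genes in either direction. Of the 18 clock genes, 4 were higher in OPA1+/- corneas, Tef (0.32), Dbp (0.54), Ciart (0.94) and Bhlhe41 (0.67). Tef averaged 341 ± 15.6 CPM in OPA1+/- and 330 ± 26.1 CPM in OPA1+/+ corneas at 3 months. At 6 months these averages were 365 ± 32.3 CPM in OPA1+/- and 243 ± 12.4 CPM in OPA1+/+ corneas. Dbp, Ciart and Bhlhe41 were higher on average in OPA1+/- corneas at both ages. Without the libraries with retina transcripts edgeR called 0.119% of all genes. Of these 4 clock genes Tef alone passed (0.34, edgeR adjusted p = 0.0282), and Dbp (0.57, 0.0560), Ciart (0.91, 0.120) and Bhlhe41 (0.71, 0.106) did not. The calls of Ciart and Bhlhe41 also ended in 5 and 4 of the 15 fits without 1 library. In OPA1+/+ corneas edgeR called 0.0507% of all genes with age, and 2 clock genes fell, Tef (-0.44, edgeR adjusted p = 0.0259) and Per3 (-0.37, edgeR adjusted p = 0.0343). These calls ended in 3 and 6 of the 15 fits without 1 library and held without the libraries with retina transcripts (0.0197 and 0.0284). In OPA1+/- corneas 0 passed with age, and over both genotypes 0 of 18 did, with Clock, the partner of Arntl, at 0.23 ± 0.05 (edgeR adjusted p = 0.0552).

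With age, 2 other listed genes passed when averaged over genotypes. Car9, a hypoxia-induced carbonic anhydrase, averaged 11.5 ± 1.01 CPM at 6 months, against 8.53 ± 1.27 CPM at 3 months, in OPA1+/- corneas, and 10.5 ± 1.62 CPM at 6 months, against 7.37 ± 0.81 CPM at 3 months, in OPA1+/+ corneas (0.47 ± 0.09, edgeR adjusted p = 0.0336). Cdkn1a, a cell cycle inhibitor in the glucocorticoid list, had 0.20 ± 0.04 averaged over genotypes (edgeR adjusted p = 0.0472). In OPA1+/+ corneas it averaged 129 ± 8.35 CPM at 6 months, against 100 ± 4.91 CPM at 3 months (0.37, edgeR adjusted p = 0.0406). In OPA1+/- corneas it averaged 108 ± 7.36 CPM at 6 months and 106 ± 7.82 CPM at 3 months. The averaged calls of Car9 and Cdkn1a ended in 7 and 12 of the 15 fits without 1 library. Both held without the libraries with retina transcripts (edgeR adjusted p = 0.0428 and 0.00801). Within OPA1+/+ corneas Egln3, a prolyl hydroxylase acting on hypoxia-inducible factor, rose with age to 813 ± 68.4 CPM at 6 months, against 641 ± 22.8 CPM at 3 months (0.34, edgeR adjusted p = 0.0429). That call ended in 10 of the 15 fits without 1 library, and held without the libraries with retina transcripts (0.41, adjusted p = 0.0106). In OPA1+/- corneas Egln3 averaged 719 ± 51.01 CPM at 6 months and 732 ± 41.2 CPM at 3 months, and 0 genes of any list passed edgeR's test of the interaction of genotype and age over all libraries. Glycolytic enzymes had a median of -0.03 with age over both genotypes, with 2 of 11 positive, against 50.5% of all genes, and 0 passing. In the lists of carriers, dehydrogenases, phosphofructokinase, pyruvate entry, glucose entry and fasting response 0 genes passed in any age contrast over all libraries either. The members of those lists with the smallest p over both genotypes included the isozyme gene Aldoc of aldolase (0.18 ± 0.06, edgeR adjusted p = 0.181), Slc16a12 (-0.10 ± 0.03, 0.212), Acadl of fatty acid oxidation (-0.10 ± 0.04, 0.354), Pfkm (-0.08 ± 0.04, 0.427), Pdk3 (-0.18 ± 0.09, 0.453), Hk2 (0.18 ± 0.10, 0.512), Emb (-0.38 ± 0.25, 0.581) and Ldhd (0.11 ± 0.11, 0.753). Without the libraries with retina transcripts Clock and Egln3 passed with age over both genotypes, Slc16a12 within OPA1+/+ corneas, and Nr1d2 in the interaction test.

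**Figure D4:**
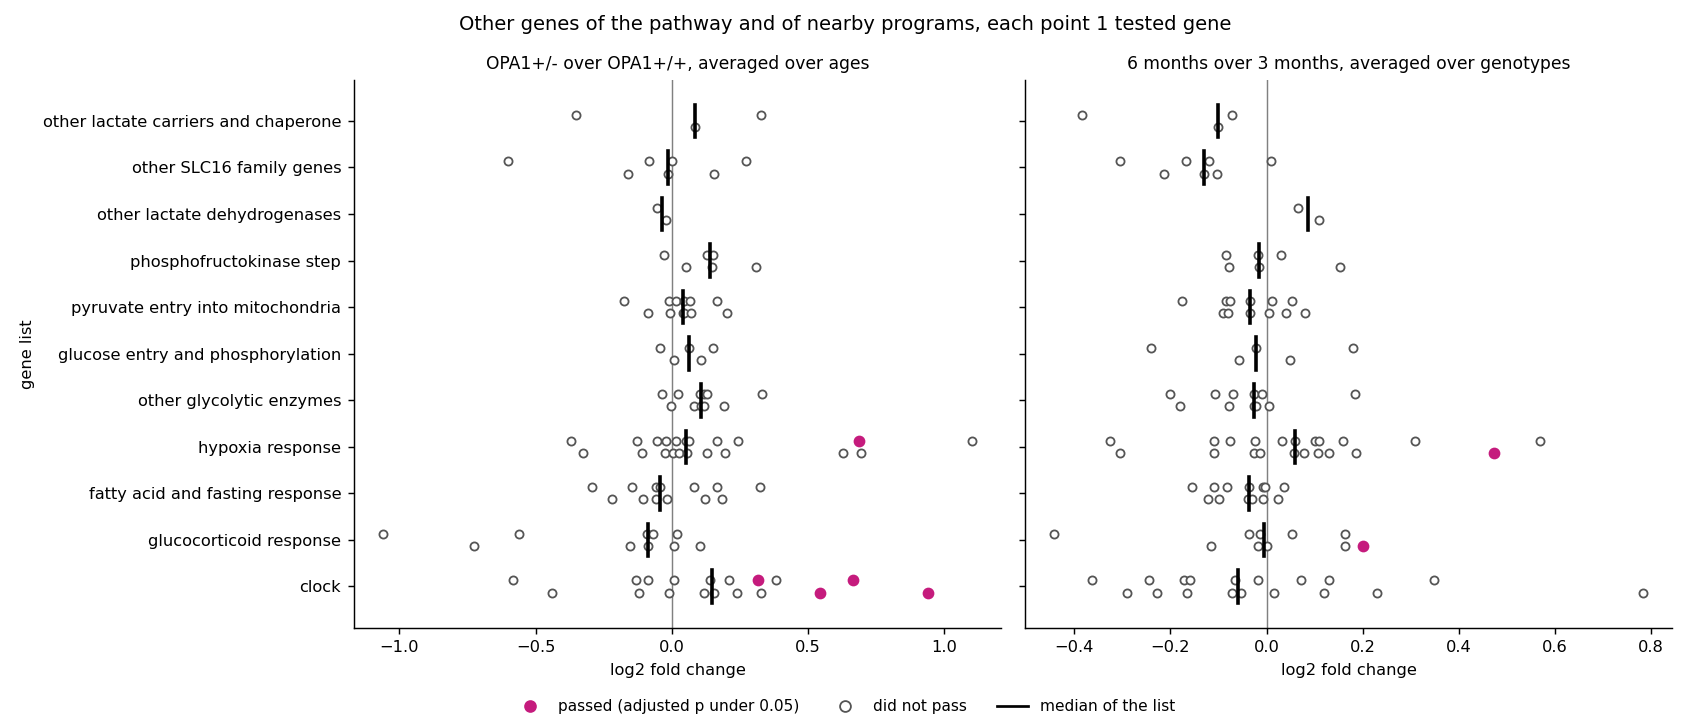
Log2 fold change of each tested gene of the 11 pathway lists, OPA1+/- over OPA1+/+ averaged over ages and 6 over 3 months averaged over genotypes; filled points passed edgeR's adjusted threshold and bars are list medians. By genotype the filled points are 1 hypoxia response gene (Ndufa4l2) and 4 clock genes, and with age they are Car9 and Cdkn1a.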

How the data were processed

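RNA was measured in 15 mouse cornea libraries. Per the labels' protocols, total RNA was extracted with Trizol and RNeasy columns and depleted of ribosomal RNA, directional NEBNext libraries were made, and the sequencer read 75 bases from 1 end of each fragment. The authors deposited raw read counts, made with featureCounts 2.0.1 over exons of GENCODE mouse release 28 on the reverse strand (setting 2) and without the option for multi-mapping reads, per the file headers. The submitters' processing notes name mm10 and DESeq2, while release 28 is annotated on GRCm39, as which coordinates were read. For the aligner, the name was not given in the sources used. Symbols matched 52081 of 55357 identifiers, and unnamed ones held 1.07% to 1.87% of a library's counts.

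Groups came from the sample titles. A single edgeR 4.0.16 quasi-likelihood model (R 4.3.3, TMM factors, filterByExpr, 1 mean per group) covered all libraries (residual degrees of freedom 11, biological coefficient of variation 0.0884). Adjusted p-values are Benjamini-Hochberg values over 15770 genes, and each SE is the log2 fold change, without its sign, over the root of the F statistic. CPM uses TMM-adjusted totals, and RPKM divides it by the summed exon length in kilobases. Fold changes are OPA1+/- over OPA1+/+ and 6 over 3 months. The procedure was tested on simulated counts. Replicate numbers did not pair libraries (correlations of deviations -0.139 to 0.232).

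Members and lists were chosen with earlier results of these data known. Named list genes are those that passed (at most the 4 with the smallest p per list), or else the 2 with the smallest p in the genotype comparison averaged over ages and the 1 with the smallest p in the age comparison averaged over genotypes, all with a mean of at least 1 CPM. Alternatives were DESeq2 1.42.0, limma 3.58.1 voom, DESeq2 size factors, other filters, a replicate block, the 2 groups alone, and each library left out, with clock or endothelial covariates. Leaving out both retina-bearing libraries was an alternative chosen after seeing the data. RefSeq promoter sequences were on GRCm38.p6 and were searched for motifs alone.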

Additional observations from a re-analysis of the deposited data

Results flagged for a closer look

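Of 72 groups of 4 libraries checked over members and marker lists, 6 held a library far from the other 3 by Dixon's test, which chance alone would give in about 1 of 20. Pdk4 was at 0 CPM in OPA1+/- at 3 months replicate 2, against 0.235 to 0.274 CPM in the others. Pfkfb2 was at 74.0 CPM in OPA1+/- at 6 months replicate 4, against 65.6 to 66.9 CPM. The summed leukocyte markers were at 71.4 CPM in OPA1+/- at 3 months replicate 2, against 56.8 to 58.4 CPM. The summed photoreceptor and retina markers were at 165 CPM in OPA1+/- at 3 months replicate 4, against 15.2 to 21.4 CPM, and at 26.4 CPM in OPA1+/- at 6 months replicate 4, against 15.6 to 17.1 CPM. The summed retinal pigment epithelium markers were at 2.53 CPM in OPA1+/+ at 3 months replicate 1, against 3.30 to 3.41 CPM. The group of 3 libraries, OPA1+/+ at 6 months, was not checked this way.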

How the results depend on the processing

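At 3 months, edgeR called 0 members and the DESeq2 test and the fit without a filter 1 each (Slc16a3), and at 6 months 0, 1 and 1 (Pfkfb3). Averaged over ages, the 2 members called became 0 with a clock covariate, 0 with an endothelial covariate and 0 without the 2 libraries with retina transcripts (the last chosen after seeing the data). Over all genes, the 125 called became 0, 53 and 19 in the same fits. Averaged over genotypes, the 0 called with age became 1 by DESeq2, 1 by limma voom and 1 without a filter (Bsg), and 2 without the libraries with retina transcripts (Bsg and Pfkfb3). Leaving out each library gave 0 to 1 members at each age, 0 to 3 averaged over ages, 0 to 0 with age in each genotype, 0 to 1 over both and 0 to 0 for the interaction. The averaged Slc16a3 call held without OPA1+/- at 3 months replicate 2, OPA1+/- at 6 months replicate 4, and OPA1+/+ at 3 months replicate 3 or 4, and ended without any of the other 11. The Pfkfb3 call ended without OPA1+/- at 3 months replicate 4 (0.19), OPA1+/- at 6 months replicate 1 (0.21) or 3 (0.21), or OPA1+/+ at 6 months replicate 2 (0.23). Counts over all genes in these fits ran from 0 to 19 at 3 months, 2 to 84 at 6 months and 16 to 237 averaged, from 1 to 24 with age in OPA1+/-, 0 to 169 in OPA1+/+ and 18 to 230 over both, and from 0 to 10 for the interaction. Under the other alternatives they ran over 0 to 45, 0 to 197 and 0 to 314 for genotype, 1 to 83, 0 to 138 and 1 to 250 for age, and 0 to 21 for the interaction. Opa1 averaged over ages kept its size with the clock covariate (-0.47) but not its call (adjusted p = 0.502), and leaving out libraries gave -0.51 to -0.45.

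Signs of age values that changed were those of values near 0. Between genotypes, signs of several members changed too. At 6 months the clock covariate took Bsg from 0.13 to -0.0024 ± 0.13 and Ldha from 0.087 to -0.12 ± 0.18. It took Ldhb from 0.089 to -0.094 ± 0.30 and Pfkfb4 from -0.026 to 0.13 ± 0.17. Ldha with age averaged over genotypes was 0.011 by voom, 0.055 with the clock covariate and -0.049 to 0.014 when libraries were left out, and Pdk1 was -0.0058 without the libraries with retina transcripts and -0.019 to 0.030 when libraries were left out. Pfkfb3 with age in OPA1+/+ was -0.036 with the clock covariate and -0.051 to 0.12 when libraries were left out. Averaged over genotypes, Slc16a3 with age ran from -0.0036 to 0.21 and Pfkfb2 from -0.050 to 0.013. The cause was not tested. The other 392 age values of members kept their direction and side of the threshold, and 7 passed it.

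Replicate numbers did not pair the libraries. With the replicate block, 1 member was called averaged over ages (Pfkfb3, 0.21 ± 0.04), while Slc16a3 (0.88 ± 0.20) was not. With age 0 members were called. Genes called between genotypes numbered 0 at 3 months, 48 at 6 months and 90 averaged. With age they numbered 3 in OPA1+/-, 0 in OPA1+/+ and 42 over both, and 0 for the interaction. Among the listed genes the block ended the calls of Ndufa4l2 (adjusted p = 0.0591) and Bhlhe41 (0.0541) averaged over ages, and of Egln3 (0.136), Cdkn1a (0.0701), Tef (0.0742) and Per3 (0.135) with age in OPA1+/+.

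Depth limited Pdk4 (0 to 8 counts), and Slc16a3 rested on 11 to 58 counts per library. DESeq2 size factors moved the median of all genes by less than 0.01 (log2).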

Other observations

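Relatives of the members differed widely in level per length over the 15 libraries. Slc16a12, which encodes a creatine transporter of the SLC16 family, averaged 23.7 ± 1.62 RPKM (SD, n = 15), and Slc5a8, a sodium-coupled carrier of lactate and other monocarboxylates, 18.03 ± 2.11 RPKM, both above the 1.22 RPKM of Slc16a1 and the 0.419 RPKM of Slc16a3. Slc16a13 stood at 10.98 ± 1.15 RPKM. Slc16a7 stood at 0.635 ± 0.094 RPKM and Emb, the alternative chaperone of monocarboxylate transporters, at 1.15 ± 0.42 RPKM, against 164 RPKM for Bsg.

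Among pyruvate dehydrogenase kinases Pdk2 was highest, at 18.6 ± 1.14 RPKM, against 11.9 RPKM for Pdk1, 3.21 ± 0.38 RPKM for Pdk3 and 0.0629 RPKM for Pdk4. The phosphatases that reverse them, Pdp2 and Pdp1, stood at 9.88 ± 0.66 and 2.23 ± 0.26 RPKM. Pfkfb1, the liver and muscle isoform, stood at 0.476 ± 0.083 RPKM, below its 3 relatives at 9.42 to 12.6 RPKM, and Tigar, a fructose 2,6-bisphosphatase, at 3.69 ± 0.32 RPKM. Aldoa (87.3 ± 7.10 RPKM) and Pkm (64.7 ± 5.19 RPKM) were near Ldha (79.4 RPKM). These levels are descriptions, and the genes were picked after their values were seen.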
